A study of Mus musculus with 10 samples.

Results

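The 47 genes described here drive or accompany DNA replication and cell division. They were taken by symbol from a count table of 55486 genes, in which each had 1 row, and comprised 16 S-phase members (the replicative helicase subunits Mcm2 to Mcm7, other replication and nucleotide-supply genes, the E-type cyclins and E2f1) and 31 mitotic members. Expression was read as raw counts per gene in 10 bulk RNA sequencing libraries and is given as counts scaled to the same library total (CPM). Normal mammary fibroblasts (NFs) came from 8-week-old mTmG mice, whose cells are red until Cre turns them green, and were sorted by the surface protein CD26, after which the CD26+ NFs received a Cre adenovirus. Gel 1, of collagen and basement membrane extract, held both NF subsets without tumor cells, gels 2 and 3 held tumor cells only, and gels 4 and 5 held both subsets with tumor cells. Tumor cells were the lines 13-MCB-17 (gels 2 and 4) and 10-SJK-221 (gels 3 and 5), from a lobular carcinoma model in which WapCre, active in mammary epithelium, deletes floxed alleles, that of Cdh1 among them. After 7 days the cells were sorted by color, giving 1 library each of CD26− and CD26+ NFs alone and 2 libraries each of CD26− NFs, CD26+ NFs and tumor cells in co-culture and of tumor cells alone.

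Several mice were pooled for the fibroblast sorts, per the study's methods, and nothing in the labels says that libraries of a group came from separate animals, so p-values measure the spread between these libraries, which may be technical. Virus exposure and the CD26+ subset cannot be told apart, and neither can the culture of NFs and the 1 gel that held them alone. Libraries held 14142334 to 18408940 counts, and the lowest count of any member in any library was 6, so that every member was measured in all 10 libraries and passed the filters on low counts. The 8 fibroblast markers summed to 23316 to 74846 CPM in NF libraries and 38.7 to 177 CPM in tumor libraries, and the 8 epithelial markers to 3297 to 4513 CPM in tumor libraries against 0.435 and 0.912 CPM in NFs alone, where 6 of them, Epcam among them, were at 0. In NFs that had shared a gel with tumor cells the epithelial markers summed to 104 to 277 CPM, which is taken up beside the results it touches. The 5 endothelial markers summed to 2.34 to 24.4 CPM, and the 6 immune markers to 5.46 to 62.6 CPM in NFs and 48 to 301.5 CPM in tumor libraries, with Ptprc or Adgre1 at 0 in 9 of the 10 libraries; the part of such cells in the results was not tested.

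Cells that enter a division cycle pass a commitment point in G1, at which cyclin D and cyclin E kinases release E2F transcription factors from the retinoblastoma family, and E2F then switches on the genes of S phase. Genes of mitosis are switched on later by B-Myb (the product of Mybl2) and FoxM1 together with the MuvB core, which binds a short promoter element called the cell cycle genes homology region (CHR). In resting cells the same core keeps both groups of genes low as part of the DREAM complex. In a bulk library, fewer cycling cells and less RNA per cycling cell cannot be told apart.

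The promoters of the members differed along this division. RefSeq windows of 300 bases (250 before to 50 after each start, build GRCm38.p6) were matched by symbol for 39 members and searched on both strands for the CHR letters TTTGAA, the CCAAT box CCAAT, and 4 E2F strings (TTTCCCGC, TTTGGCGC, TTTCGCGC and TTCCCGCC, of which the first and last can overlap). The CHR letters stood in the windows of 18 of 26 mitotic members (69.2%) and of 1 of 13 S-phase members (Mcm2), against 20.2% of all 27025 symbols with a window. An E2F string stood in 7 of 13 S-phase windows (53.8%) and in 1 of 26 mitotic windows (Cdk1), against 4% of all symbols. CCAAT boxes stood in 8 of 13 S-phase and 20 of 26 mitotic windows, against 41.1% of all symbols, and 14 mitotic members had 2 or more. These matches describe letters and do not show that a factor binds. Ccna2, Tpx2, Ccne2, Foxm1, Kif20a, Aurkb, Gins2 and Mcm4 had no matched window.

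The 160 bases before the start are shown for 4 mitotic members because they carry CHR letters there (capitals, on either strand; in Cdk1 the capitals also mark its E2F string). The start is that of the RefSeq window, and 26 bases of the Cdk1 stretch lie in an exon of Cdk1 in the GENCODE annotation. They belong to DNA topoisomerase II alpha, the mitotic kinase Cdk1, the spindle motor Kif11 and the proliferation marker Mki67, and each reads 5′ to 3′ on the gene's strand.
Top2a, chr11:99024190-99024349, minus strand: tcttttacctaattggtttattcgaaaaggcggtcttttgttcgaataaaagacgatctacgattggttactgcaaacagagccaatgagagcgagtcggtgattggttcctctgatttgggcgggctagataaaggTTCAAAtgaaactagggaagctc
Cdk1, chr10:69352913-69353072, minus strand: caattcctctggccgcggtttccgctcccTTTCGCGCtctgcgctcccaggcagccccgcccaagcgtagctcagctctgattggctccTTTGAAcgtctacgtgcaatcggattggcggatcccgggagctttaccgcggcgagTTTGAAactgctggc
Kif11, chr19:37376222-37376381, plus strand: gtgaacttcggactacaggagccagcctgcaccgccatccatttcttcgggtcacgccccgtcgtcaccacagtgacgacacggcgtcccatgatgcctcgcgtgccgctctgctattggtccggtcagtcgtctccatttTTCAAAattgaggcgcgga
Mki67, chr7:135716380-135716539, minus strand: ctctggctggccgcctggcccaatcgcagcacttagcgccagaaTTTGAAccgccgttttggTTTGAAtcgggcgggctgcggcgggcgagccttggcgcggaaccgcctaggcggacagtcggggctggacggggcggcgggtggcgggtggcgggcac

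The same stretch is shown for 4 S-phase members because it carries E2F strings (capitals, on either strand). They are the helicase subunits Mcm5 and Mcm6, the ribonucleotide reductase subunit Rrm1 and the origin-licensing factor Cdc6. In Mcm5 and in the first run of Mcm6, strings on opposite strands overlapped.
Mcm5, chr8:75109349-75109508, plus strand: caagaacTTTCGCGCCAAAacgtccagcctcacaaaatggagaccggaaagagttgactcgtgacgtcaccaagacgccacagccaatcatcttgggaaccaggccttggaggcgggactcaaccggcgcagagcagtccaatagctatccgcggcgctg
Mcm6, chr1:128359706-128359865, minus strand: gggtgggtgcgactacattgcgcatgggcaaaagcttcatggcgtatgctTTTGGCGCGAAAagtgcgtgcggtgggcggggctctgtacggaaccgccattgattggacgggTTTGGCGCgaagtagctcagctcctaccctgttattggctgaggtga
Rrm1, chr7:102441535-102441694, plus strand: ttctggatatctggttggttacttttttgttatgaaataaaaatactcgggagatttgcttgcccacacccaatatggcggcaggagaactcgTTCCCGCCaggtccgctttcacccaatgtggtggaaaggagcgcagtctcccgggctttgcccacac
Cdc6, chr11:98907991-98908150, plus strand: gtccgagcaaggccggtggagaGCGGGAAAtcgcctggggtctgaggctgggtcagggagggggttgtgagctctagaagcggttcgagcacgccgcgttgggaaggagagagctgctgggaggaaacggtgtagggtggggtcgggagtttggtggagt

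Tumor cells and NFs were compared first. Tumor cells held far more RNA of the mitotic members than NFs in either culture. The 31 mitotic members summed to 2097 and 2826 CPM in gels 2 and 3, where tumor cells grew alone, and to 1341 and 2005 CPM in the tumor cells of gels 4 and 5. In CD26− and CD26+ NFs of gel 1 they summed to 422 and 182 CPM, and in the 4 other NF libraries to 122 to 206 CPM. The S-phase members lay closer together, at 553 to 1002 CPM in tumor libraries and 247 to 399 CPM in NF libraries. The mitotic sum divided by the S-phase sum was 1.76 to 3.79 in tumor cells and 0.442 to 1.06 in NFs.

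**Figure D1:**
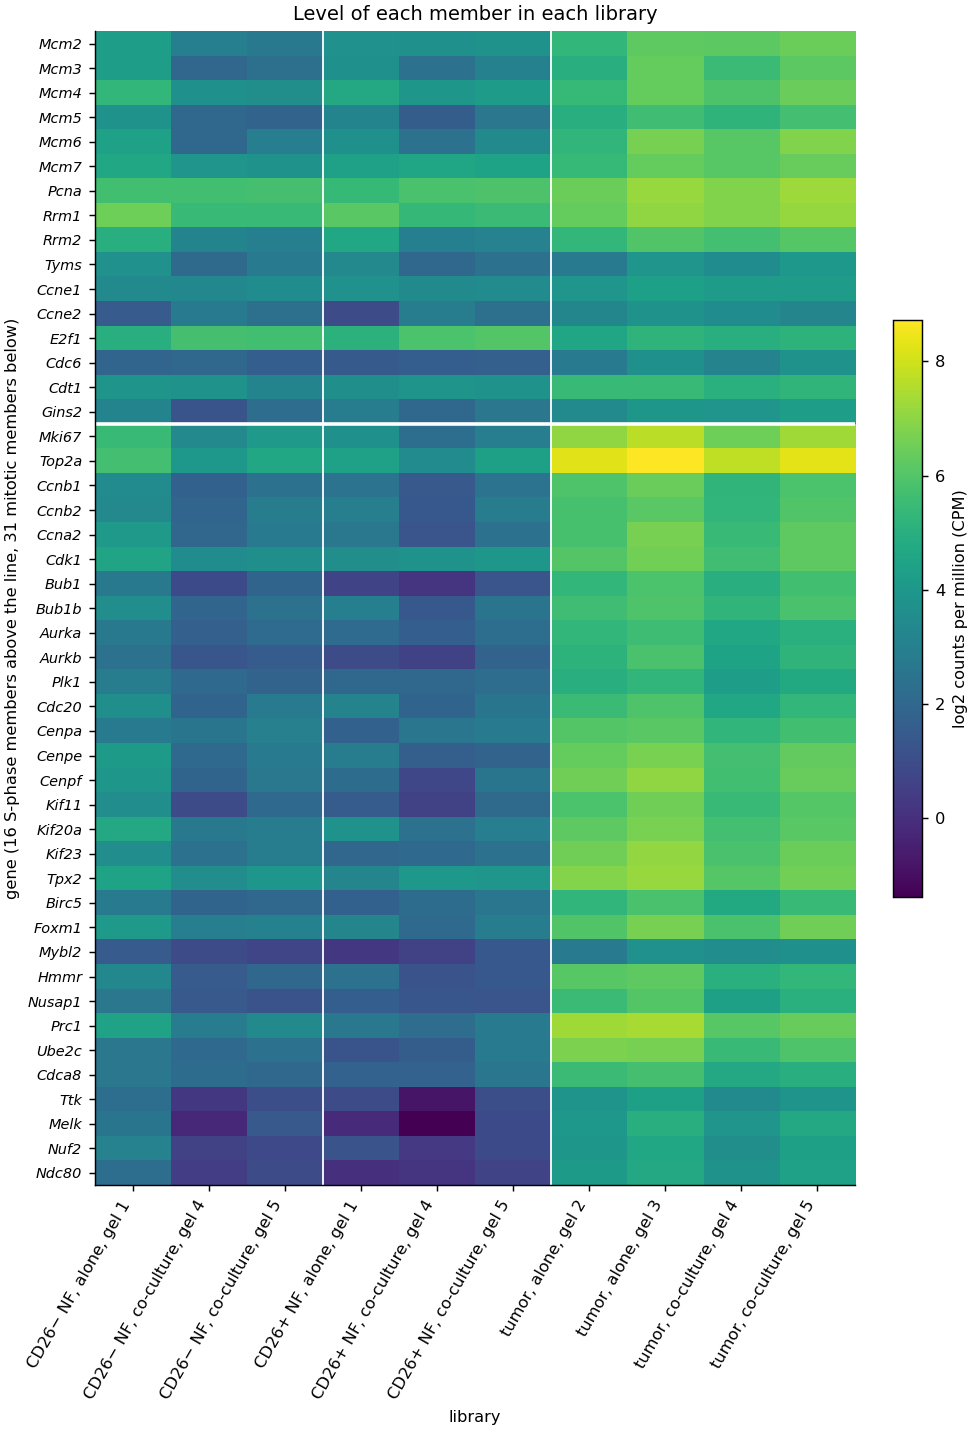
Log2 CPM (color) of each of the 47 members (rows) in each of the 10 libraries (columns). All 31 mitotic members were higher in every tumor library than in every NF library, as were 13 of 16 S-phase members.

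Every mitotic member and 13 of the 16 S-phase members had all 4 tumor libraries above all 6 NF libraries, an order seen in 22.3% of the 17048 genes tested. The S-phase exceptions were E2f1, Rrm1 and the thymidylate synthase gene Tyms. Top2a, which untangles replicated chromosomes, stood at 308 and 424.5 CPM in tumor cells of gels 2 and 3 and 218 and 316 CPM in those of gels 4 and 5. In NFs it stood at 51.7 and 21.4 CPM in the CD26− and CD26+ libraries of gel 1, 16 and 11.2 CPM in those of gel 4 and 25 and 20.9 CPM in those of gel 5. All tumor libraries were thus above all NF libraries, and the CD26− library of gel 1 was the highest among NFs. Mki67, which coats mitotic chromosomes, stood at 134 and 205 CPM in tumor cells of gels 2 and 3 and 90.9 and 155 CPM in those of gels 4 and 5, against 44.1 and 13.05 CPM, 10.3 and 4.82 CPM and 16.4 and 7.64 CPM in the CD26− and CD26+ NFs of gels 1, 4 and 5. Here too no NF library reached a tumor library.

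Where the cell types grew apart, all 31 mitotic members were higher in tumor cells than in NFs (27.1% of 17048 genes were), with log2 fold changes from 2.04 to 4.63 and a median of 3.08 (all genes −0.02). The largest differences were those of Ube2c, the E2 enzyme of the anaphase-promoting complex (4.63, SE 0.397, adjusted p = 2.55e-05, edgeR with Benjamini-Hochberg adjustment), the central spindle motor Kif23 (3.93, adjusted p = 1.92e-05) and the checkpoint kinase Bub1 (3.77, adjusted p = 0.00022). The smallest were those of the cytokinesis motor Kif20a (2.04, adjusted p = 0.000221), the kinetochore protein Nuf2 (2.06, adjusted p = 0.00158) and Cdk1 (2.12, adjusted p = 0.000194). The exons of Ube2c overlap those of Tnnc2 over 22.8% of their length and those of Kif20a overlap Cdc23 over 29.3%. Since the sources used here do not say whether counting used strand, the counts of these genes are less certain.

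Of the S-phase members, 10 of 16 were higher in tumor cells grown alone and none was lower (28.4% of all genes were), with a median of 1.22. Cyclin E2, Ccne2, differed most (2.15, SE 0.316, adjusted p = 0.000613), followed by Mcm6 (1.91, adjusted p = 0.0134) and Mcm5 (1.72, adjusted p = 0.00347). Tyms (−0.28, adjusted p = 0.574), E2f1 (−0.26, adjusted p = 0.317) and Rrm1 (0.27, adjusted p = 0.312) were at the other end and did not pass. Of 15 members followed in every comparison, Mki67, Top2a, Ccnb1, Cdk1, Plk1, Birc5, Foxm1, Mybl2, Mcm2, Pcna, Rrm2, Ccne2 and Cdc6 were higher in tumor cells, and Ccne1 (0.40, adjusted p = 0.144) and E2f1 did not pass. Without the CD26+ library of gel 1, or without the tumor library of gel 3, 6 S-phase members were higher, and without the latter E2f1 was lower.

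Inside the shared gels all 31 mitotic members were again higher in tumor cells (24.2% of genes were), with a median of 3.21 (all genes −0.06). Bub1 (4.02, adjusted p = 3.79e-05), Kif11 (3.99, adjusted p = 9.25e-05) and the kinetochore protein Cenpf (3.73, adjusted p = 0.000136) led, and Cdk1 (2.01, adjusted p = 7.82e-05), the polo kinase gene Plk1 (2.27, adjusted p = 3.27e-05) and the spindle assembly factor Tpx2 (2.29, adjusted p = 1.62e-05) differed least. Of the S-phase members 14 were higher, with a median of 1.66, led by Mcm6 (3.50, adjusted p = 0.000223), Mcm3 (3.21, adjusted p = 0.000151) and Mcm5 (3.20, adjusted p = 4.07e-05). E2f1 was lower in tumor cells (−0.98, SE 0.186, adjusted p = 0.00259), where 27.7% of genes were lower. Cyclin E1, Ccne1, was higher (0.51, adjusted p = 0.0435). Ccne2 did not pass (0.57, adjusted p = 0.085), but was higher with the gel as a block (0.57, adjusted p = 0.0377). The other 12 of the 15 members followed throughout were all higher in tumor cells. NF libraries of shared gels held RNA of epithelial markers. With the share of tumor RNA estimated from those markers taken off the counts, the same 31 mitotic and 14 S-phase members were higher, with medians of 3.76 and 1.76. For Bub1, Kif11, Cenpf and Mki67 that share came to 53.2% to 104% of the level in CD26+ NFs of shared gels, so the size of their difference then rests on the subtraction and is not given.

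Per kilobase of exon, which allows genes to be ordered, cyclin B2 (Ccnb2, 37.3 CPM per kb) and Top2a (35.1 CPM per kb) had the highest mean levels among mitotic members in tumor cells, and Mybl2 (2.44 CPM per kb) the lowest. In NFs Ccnb2 (4.28 CPM per kb) and Cdc20, an activator of the anaphase-promoting complex (3.71 CPM per kb), were highest and the kinetochore gene Ndc80 (0.302 CPM per kb) lowest. The replication clamp gene Pcna led the S-phase members per kilobase in tumor cells (51.4 CPM per kb) and in NFs (21.9 CPM per kb). Next came Rrm2, the small subunit of ribonucleotide reductase, in tumor cells (20 CPM per kb) and E2f1 in NFs (15.6 CPM per kb).

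The tumor lines stood in a steady order. Line 10-SJK-221 was above line 13-MCB-17 in both cultures for 30 of 31 mitotic members and 14 of 16 S-phase members, an order seen in 38.9% of genes tested. The exceptions were Ube2c, Ccne2 and the licensing factor Cdt1. Each line gave 1 library per culture, so the order is a description without a test.

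Tumor cells that had shared a gel with NFs were then compared with the same lines grown alone. Many mitotic members fell beside NFs, and 1 S-phase member rose. Of the 31 mitotic members 22 fell and none rose (11.5% of the 13197 genes tested fell and 10.8% rose), with a median log2 fold change of −0.53 against 0.01 for all genes. The S-phase members had a median of 0.20, and Mcm2 alone passed, as a rise (0.54, SE 0.142, adjusted p = 0.0293). The number of calls rested on the model, in which line and culture fitted to 4 libraries left little to measure spread with. Without tumor line in it no member passed (11 mitotic members and no S-phase member had an unadjusted p under 0.05, median of mitotic members −0.51). With the spread shared with the NF libraries 8 mitotic members fell, and DESeq2 called 17. Single tumor libraries were left out of a fit that included the NF libraries. Fewer mitotic members passed then, with medians of −0.47 without gel 2 or 4 and −0.61 without gel 3 or 5. Mcm2 passed in none of these fits.

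The largest falls were those of Prc1, Nusap1 and Ube2c. Prc1, which bundles midzone microtubules, went from 155 and 169 CPM in gels 2 and 3 to 68 and 83.6 CPM in gels 4 and 5. Nusap1, a spindle microtubule protein, went from 45.3 and 65.8 CPM to 20.4 and 33 CPM in the same gels. Ube2c went from 108 and 102 CPM to 43.4 and 61.2 CPM. In all 3 genes both libraries from shared gels lay below both others, an order that 16 of 31 mitotic members, 1 of 16 S-phase members (Cdt1) and 19.8% of genes showed. The log2 fold changes were −1.13, SE 0.104, adjusted p = 0.000282 for Prc1, −1.09, SE 0.115, adjusted p = 0.000515 for Nusap1 and −1.05, SE 0.143, adjusted p = 0.00162 for Ube2c.

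The spindle protein gene Hmmr (−1.01, adjusted p = 0.00059) and Cdca8, of the chromosomal passenger complex (−0.80, adjusted p = 0.00181), fell nearly as much. Cyclin B1, Ccnb1, went from 61.65 and 85.3 CPM to 37.95 and 57.95 CPM (−0.65, adjusted p = 0.00315). Plk1 (−0.64, adjusted p = 0.0118), Mki67 (−0.51, adjusted p = 0.00997), Top2a (−0.49, adjusted p = 0.0133), the survivin gene Birc5 (−0.46, adjusted p = 0.0212) and Cdk1 (−0.39, adjusted p = 0.0238) fell less. The mitotic kinases Aurka (−0.63) and Aurkb (−0.66) and the centromere proteins Cenpa (−0.64), Cenpe (−0.53) and Cenpf (−0.79) were also among the 22.

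Both transcription factors of the mitotic list were among the 9 that did not pass. Foxm1 stood at 63.8 and 99.8 CPM in tumor cells by themselves and 56.8 and 93.1 CPM in shared gels (−0.16, adjusted p = 0.291). Mybl2 stood at 6.95 and 13.4 CPM and 11.9 and 12.9 CPM, and was the only mitotic member with a positive value (0.32, adjusted p = 0.348). In both genes the libraries of the 2 cultures overlapped.

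Within each line the order was the same for nearly all members. Co-culture was below alone in both lines for 30 of 31 mitotic members and for 1 S-phase member, Cdt1 (29.9% of genes), and above alone in both lines for 11 of 16 S-phase members and no mitotic member (35.8% of genes). Mcm2 went from 39.55 and 73.9 CPM to 72.4 and 88.4 CPM and Mcm6 from 39.1 and 100.1 CPM to 69.1 and 111 CPM, so that in each line the shared gel was higher. Mcm6 (0.45, adjusted p = 0.0631) and Tyms (0.38, adjusted p = 0.209) at the upper end and Cdt1 (−0.36, adjusted p = 0.0645), Ccne2 (−0.16, adjusted p = 0.66) and Ccne1 (0.03, adjusted p = 0.932) at the lower end did not pass. Pcna, Rrm2, E2f1 and Cdc6 did not pass either.

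**Figure D2:**
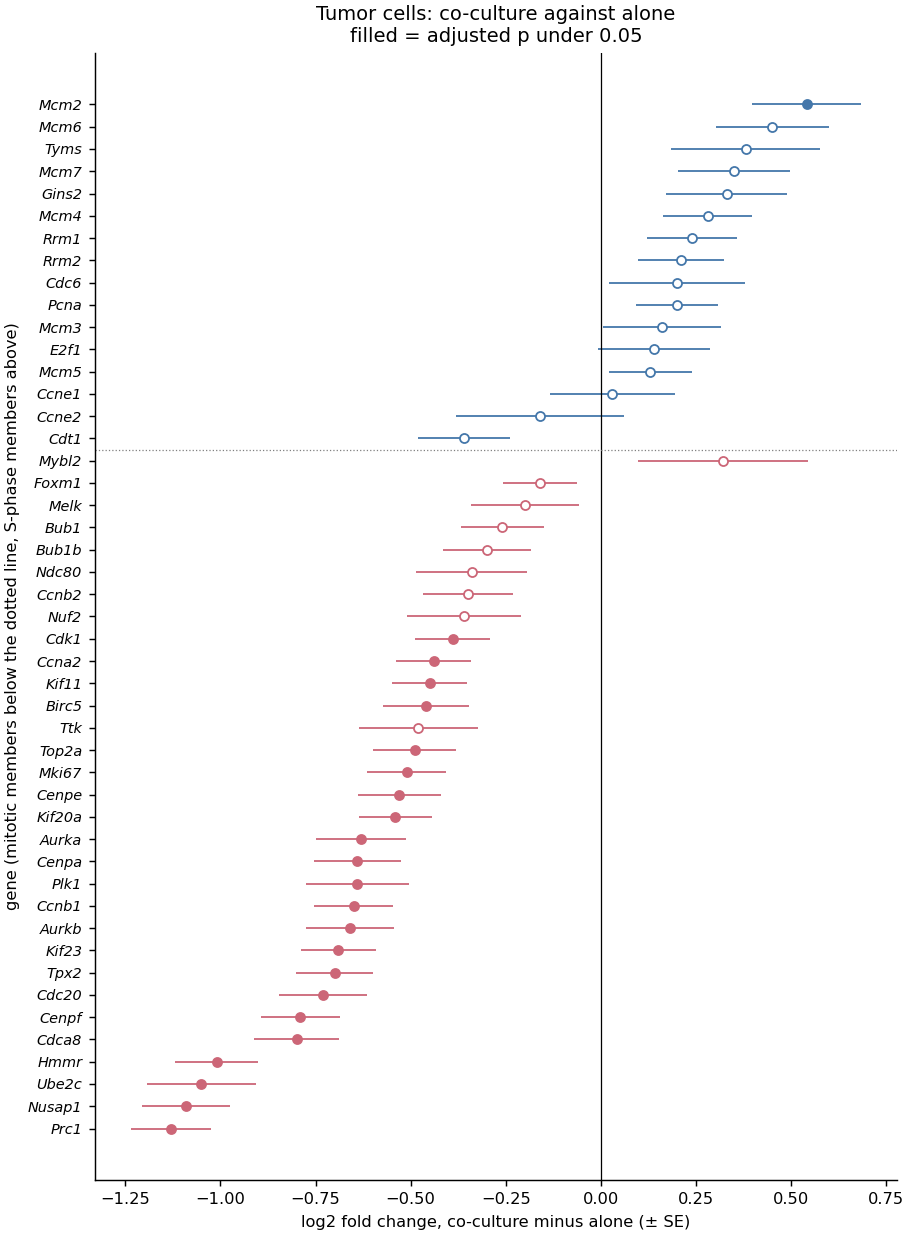
Log2 fold change of each member in tumor cells, co-culture minus alone, with tumor line in the model (x axis; points with standard errors, 4 libraries; filled, adjusted p under 0.05; red, mitotic; blue, S-phase). All but 1 mitotic member lie left of 0 and 14 of 16 S-phase members lie right of it.

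The mitotic to S-phase ratio was 3.79 alone and 1.76 beside NFs in line 13-MCB-17, and 2.93 and 2 in line 10-SJK-221.

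**Figure D3:**
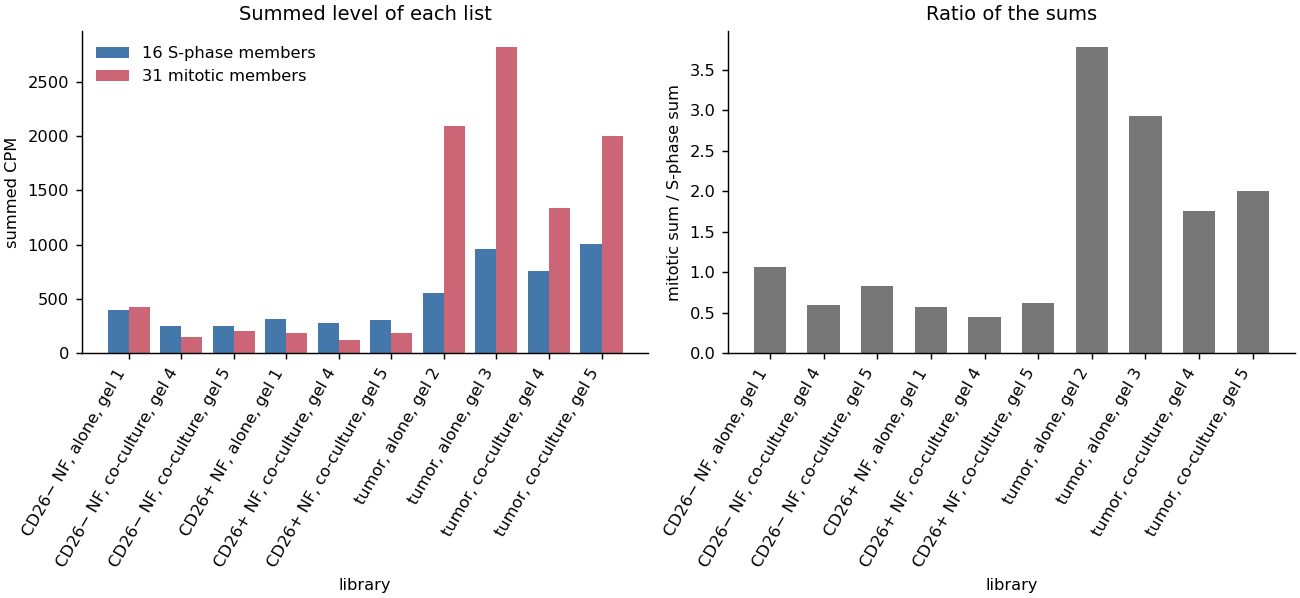
Summed CPM of the 16 S-phase and the 31 mitotic members in each library (bars from 0) and the mitotic sum divided by the S-phase sum. Ratios lie between 1.76 and 3.79 in tumor cells and between 0.442 and 1.06 in NFs, and they are lower in tumor cells of shared gels than in tumor cells alone.

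NFs that had shared a gel with tumor cells were compared with NFs of gel 1, over both subsets. Some genes of replication and of mitosis fell, E2f1 and cyclin E2 rose, and 21 of the 31 mitotic members did not pass. Of 16 S-phase members 8 fell and 2 rose (22.9% of the 15013 genes tested fell and 25.9% rose), with a median of −0.76. Of 31 mitotic members 10 fell and none rose, a count near the share of all genes that fell, with a median of −0.80 (all genes 0.02).

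Rrm2, needed for the supply of deoxyribonucleotides, fell most among S-phase members. It stood at 31.6 and 24.85 CPM in the CD26− and CD26+ NFs of gel 1, 9.21 and 7.9 CPM in those of gel 4 and 7.88 and 8.7 CPM in those of gel 5. The 4 libraries from shared gels lay together, below both libraries of gel 1 (−1.69, SE 0.158, adjusted p = 2.73e-05). The helicase subunits Mcm3 (−1.47, adjusted p = 0.00264), Mcm5 (−1.39, adjusted p = 0.00463), Mcm6 (−1.26, adjusted p = 0.0159) and Mcm4 (−1.14, adjusted p = 0.00173) fell, as did Tyms (−1.14), Rrm1 (−0.85) and Gins2 (−0.91), a subunit of the replicative helicase. Exons of Gins2 overlap those of Gse1 over 67.3% of their length, so its count is uncertain. Mcm2 (−0.66, adjusted p = 0.0736), Pcna (0.28, adjusted p = 0.129), Ccne1 and Cdc6 did not pass.

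E2f1 stood at 31.5 and 34.3 CPM in the CD26− and CD26+ NFs of gel 1, 54.2 and 59.2 CPM in those of gel 4 and 51.2 and 65.2 CPM in those of gel 5 (0.85, SE 0.13, adjusted p = 0.000602). Ccne2 stood at 2.86 and 1.965 CPM, 6.79 and 7.58 CPM and 5.12 and 5.09 CPM in the same order (1.39, SE 0.31, adjusted p = 0.00479). In both genes every NF library of a shared gel lay above both libraries of gel 1. Of 16 S-phase members 2 showed this order and of 31 mitotic members none did. These are smaller shares than the 25.2% of all genes. Tumor libraries held 23.4 to 37.2 CPM of E2f1, less than any NF library of a shared gel. Exons of Ccne2 overlap Ints8 over 17.4% of their length.

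Among mitotic members Nuf2 (−1.57, SE 0.42, adjusted p = 0.012), Kif20a (−1.50, SE 0.232, adjusted p = 0.000625) and Mki67 (−1.38, SE 0.257, adjusted p = 0.00187) fell most. Kif20a stood at 26.7 and 14.2 CPM in gel 1 and at 5.4 to 7.71 CPM in the 4 libraries of shared gels, without overlap. The motor of chromosome congression Cenpe (−1.32), Hmmr (−1.27), cyclin A2 (Ccna2, −1.17), the checkpoint kinase Bub1b (−1.14), Cdc20 (−1.04), Top2a (−0.86) and Foxm1 (−0.81) fell too. Ccnb1 (−0.88, adjusted p = 0.0675), Cdk1, Plk1, Birc5 and Mybl2 did not pass, and the upper end of the order was held by Cenpa (0.47, adjusted p = 0.218) and Ube2c (0.29, adjusted p = 0.589). All 4 libraries of shared gels lay below both of gel 1 for 8 of 16 S-phase members and for 9 of 31 mitotic members, against 26.1% of the 17048 genes, so that the mitotic count is near that of all genes.

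RNA of epithelial markers in the sorted NF libraries bears on this result. Whether it came from tumor cells was not tested. Epithelial markers in NFs of shared gels had a median of 1.97% and 2.07% of their level in the tumor cells of the same gel in CD26− NFs (gels 4 and 5), and 2.82% and 5.03% in CD26+ NFs. The 8 markers differed widely in this share, from 1.75% to 9.79% and from 0.827% to 9.19% in CD26− NFs and from 2.08% to 12.7% and from 2.57% to 17.7% in CD26+ NFs, so values with the tumor share taken off depend on the median chosen. Multiplied by the tumor level, these shares equal a median of 17.8% and 21.7% of the mitotic members' level in CD26− NFs and of 39.7% and 52.2% in CD26+ NFs, with single genes up to 111%. The subtraction thus set the counts of Bub1, Cenpe and Mki67 in CD26+ NFs of gel 5, and of Melk in those of gel 4, to 0. For S-phase members the medians were 7.14% to 17.2%. With that amount taken off the counts, 19 mitotic members fell (median −1.34) and 9 S-phase members fell, while Ccne2 (1.38) and E2f1 (0.88) rose, so more members fell (22.3% of genes fell and 24.8% rose). Gel 4 lay below gel 5 in both NF subsets for 26 of 31 mitotic members (21.2% of genes), and 4 mitotic members fell without gel 4 and 16 without gel 5.

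Each subset alone gave 1 library, so the tests within a subset and of their interaction compare 2 libraries with a single one, which is assumed to vary like the other NF groups. With the gel as a block, each gel holds 1 library of each subset. Little is then left to measure spread with, so calls made only with the block are less certain.

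In CD26− NFs 17 mitotic members fell and none rose, with a median of −1.19, and 10 S-phase members fell and 2 rose, with a median of −1.08 (14.1% of 16231 genes fell and 16.6% rose). Nuf2 (−2.31, adjusted p = 0.000857), Kif20a (−1.86, adjusted p = 0.000169) and Kif11 (−1.84, adjusted p = 0.0169) fell most among mitotic members, and Mcm3 (−2.01, adjusted p = 0.000279), Rrm2 (−1.82, adjusted p = 4.83e-05) and Mcm6 (−1.78, adjusted p = 0.00396) among S-phase members. Mcm2, Mki67, Top2a, Ccnb1, Cdk1 and Foxm1 also fell, E2f1 (0.81, adjusted p = 0.011) and Ccne2 (1.12, adjusted p = 0.0499; with the tumor share taken off 1.10, adjusted p = 0.0748) rose, and Pcna, Ccne1, Cdc6, Plk1, Birc5 and Mybl2 did not pass. DESeq2 called 9 mitotic members, and without the CD26− library of gel 4 there were 4.

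In CD26+ NFs fewer members passed. Of 31 mitotic members 3 fell and 1 rose, smaller shares than those of all genes. Kif20a (−1.08, adjusted p = 0.0119), Cenpe (−1.05, adjusted p = 0.0427) and Mki67 (−1.03, adjusted p = 0.032) fell, Tpx2 rose (0.77, SE 0.273, adjusted p = 0.0425), and the mitotic median was −0.12 (15.2% of 16231 genes fell and 19% rose; all genes 0.06). Of the S-phase members Rrm2 (−1.54, adjusted p = 0.000234), Tyms (−1.12, adjusted p = 0.0272), Rrm1 (−0.68, adjusted p = 0.0196) and Mcm4 (−0.62, adjusted p = 0.0473) fell and Ccne2 (1.72, adjusted p = 0.0078) and E2f1 (0.90, adjusted p = 0.00568) rose, with a median of −0.37. Ube2c (1.10, adjusted p = 0.109), Cenpa (1.00, adjusted p = 0.0537) and Mybl2 (0.86, adjusted p = 0.276) had high values that did not pass, and neither did Mcm2, Pcna, Ccne1, Cdc6, Top2a, Ccnb1, Cdk1, Plk1, Birc5 or Foxm1. With the tumor share taken off, 13 mitotic members fell and none rose (median −1.25; 14% of genes fell and 16.9% rose), among them Top2a (−1.98, adjusted p = 0.000655) and Foxm1 (−1.67, adjusted p = 0.00227), and Tpx2 did not pass (0.50, adjusted p = 0.223). Of these 13, Bub1, Cenpe and Mki67 had a count of 0 set by the subtraction. Of the S-phase members 7 then fell, with Mcm3, Mcm5 and Mcm6 added, and 2 rose. Without the CD26+ library of gel 4 no mitotic member passed, and DESeq2 called 1.

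**Figure D4:**
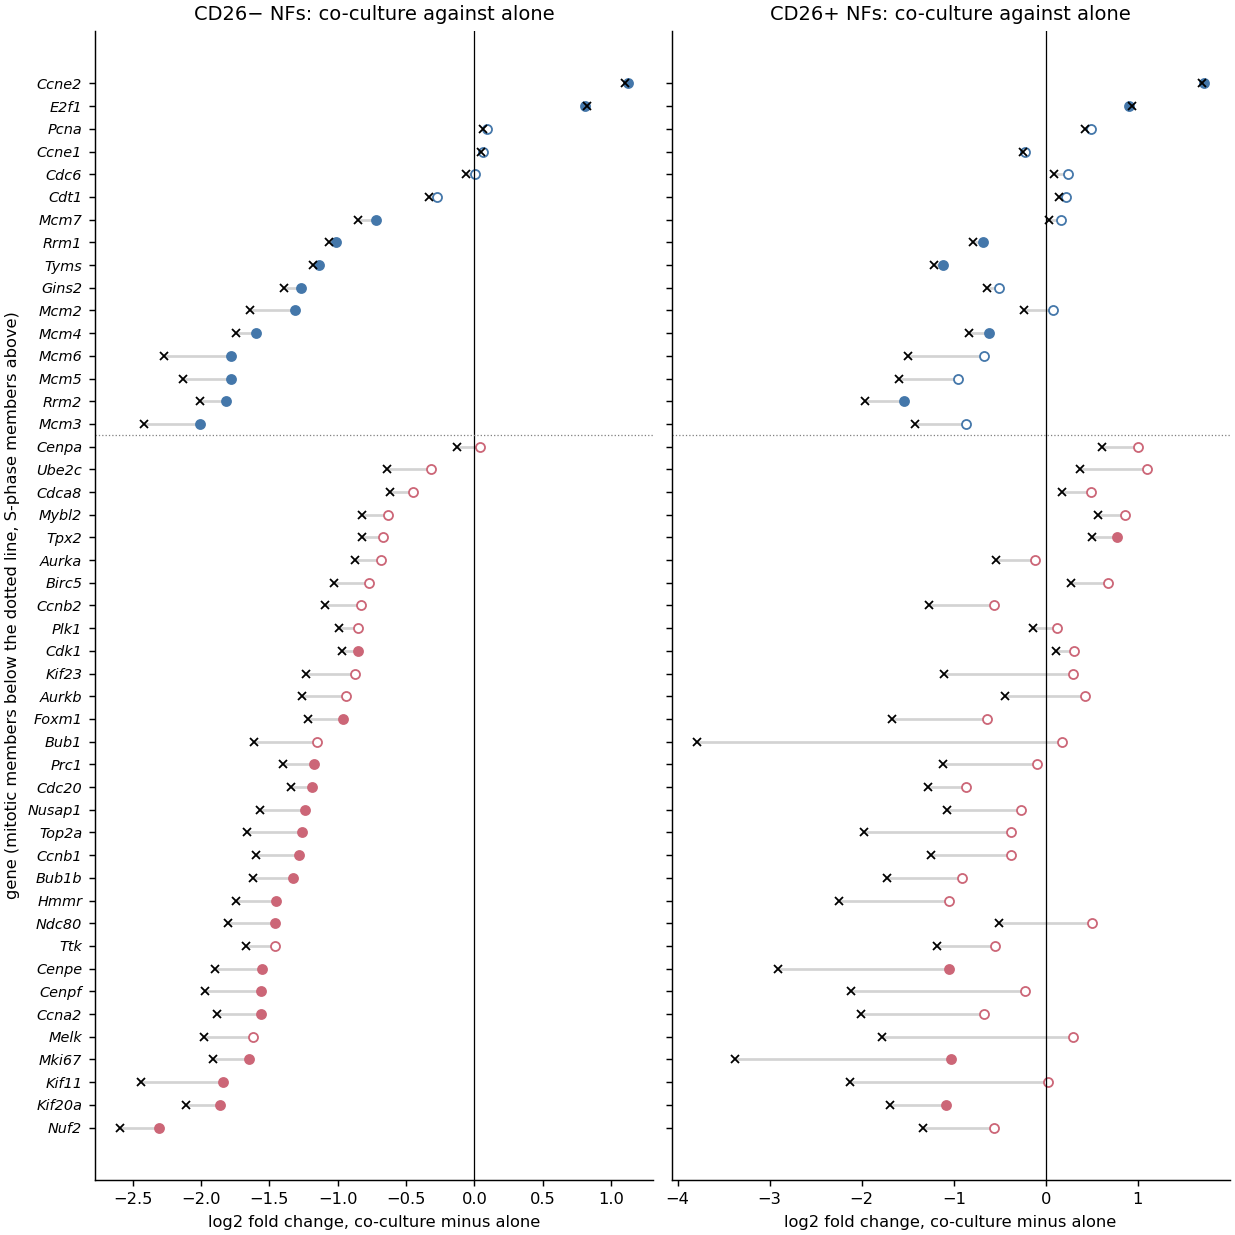
Log2 fold change of each member in CD26− NFs (left) and CD26+ NFs (right), co-culture minus alone; circles are deposited counts (filled, adjusted p under 0.05; red, mitotic; blue, S-phase) and crosses are counts less the share of tumor RNA estimated from epithelial markers. The mitotic median goes from −1.19 to −1.57 in CD26− NFs and from −0.12 to −1.25 in CD26+ NFs when that share is taken off; crosses of Bub1, Cenpe, Melk and Mki67 at right rest on a count set to 0.

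Whether the subsets differ in this response was tested as an interaction, and no member passed (0.376% of 16231 genes did). The lowest adjusted p was 0.161 among S-phase and 0.152 among mitotic members, DESeq2 called none, and 4 S-phase and 8 mitotic members had an unadjusted p under 0.05 in edgeR. All 31 mitotic members had positive values, a less negative or more positive change in CD26+ NFs, with a median of 0.97, and 15 of 16 S-phase members did, with a median of 0.54 (all genes 0.03). Ndc80 (1.96, adjusted p = 0.535), Melk (1.92, adjusted p = 0.781) and Kif11 (1.87, adjusted p = 0.611) were highest and Ccnb2 (0.27, adjusted p = 1) lowest among mitotic members, and Mcm2 (1.39, adjusted p = 0.161) highest and Ccne1 (−0.29, adjusted p = 0.968) lowest among S-phase members. With the gel as a block Mcm2 (1.39, adjusted p = 0.00566), Tpx2 (1.46, adjusted p = 0.00174), Kif11 (1.84, adjusted p = 0.026) and Cdk1 (1.16, adjusted p = 0.0285) passed, all with positive values (1.42% of genes did). With the tumor share taken off, 21 of 31 mitotic values were positive and their median was 0.34. Kif11 then lay nearer to 0 (0.31, adjusted p = 1). The values of Bub1, Cenpe, Melk and Mki67 after the subtraction, negative for Bub1, Cenpe and Mki67, rest on a library whose count it set to 0 and are no measure of size. The same holds for Mki67 with the block and the subtraction together, where it had a negative value (−1.49, adjusted p = 0.0211) and where Tpx2 and Mcm2 passed with positive ones.

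The subsets themselves were compared over the 3 gels that held both. All 31 mitotic members had negative values, lower in CD26+ NFs, of which 3 passed, and S-phase members had no common direction. Mki67 (−1.50, SE 0.259, adjusted p = 0.012), Prc1 (−1.22, SE 0.29, adjusted p = 0.0362) and Cenpe (−1.11, SE 0.266, adjusted p = 0.0378) were lower in CD26+ NFs (3.6% of 15013 genes were, and 3.93% were higher), and the mitotic median was −0.70 (all genes 0.004). No S-phase member passed in edgeR or DESeq2 (none at an unadjusted p under 0.05), and their median was −0.11.

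Mki67 in the CD26− and CD26+ NFs stood at 44.1 and 13.05 CPM in gel 1, 10.3 and 4.82 CPM in gel 4 and 16.4 and 7.64 CPM in gel 5, lower in CD26+ NFs each time. Prc1 stood at 21.9 and 6.32 CPM, 7.27 and 4.75 CPM and 11.1 and 6.72 CPM in the same gels, again lower in CD26+ NFs each time. In gel 1, without tumor cells, CD26+ NFs were below CD26− NFs for 31 of 31 mitotic and 14 of 16 S-phase members (39.3% of genes). In gel 4 this held for 26 mitotic and 5 S-phase members (33% of genes), and in gel 5 for 16 mitotic and 3 S-phase members (35.7% of genes). It held in all 3 gels for 13 mitotic members and 1 S-phase member, Tyms (11.7% of genes).

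The kinase genes Melk (−1.56, adjusted p = 0.184) and Bub1 (−1.28, adjusted p = 0.123) had low values that did not pass, and Birc5 (−0.17, adjusted p = 0.793) and Cdk1 (−0.27, adjusted p = 0.527) were nearest to 0. Tyms (−0.48, adjusted p = 0.274) was the lowest and Mcm2 (0.25, adjusted p = 0.605) the highest S-phase member. Top2a, Ccnb1, Plk1, Foxm1, Mybl2, Pcna, Rrm2, Ccne1, Ccne2, E2f1 and Cdc6 did not pass. With the gel as a block 6 mitotic members were lower (4.47% of genes were, and 4.4% higher), adding Top2a (−0.85, adjusted p = 0.0282), Ccna2 (−0.97, adjusted p = 0.0436) and Foxm1 (−0.77, adjusted p = 0.0494). With the tumor share taken off 9 were lower (3.01% of genes, with 3.52% higher), of which Mki67 and Bub1 had 1 count set to 0 by the subtraction. Cenpe, also with 1 count set to 0, did not pass then (adjusted p = 0.0878). Without gel 5, gel 1 or gel 4 the numbers were 0, 1 and 4.

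In the shared gels alone Mki67 was lower in CD26+ NFs (−1.29, SE 0.286, adjusted p = 0.0171) and no other member passed (2.53% of 16231 genes were lower and 3.48% higher). The mitotic count is thus near the share of all genes. The mitotic median was −0.32, from Mki67 to Birc5 (0.29, adjusted p = 0.654), and the S-phase median 0.08, from Tyms (−0.48, adjusted p = 0.425) to Mcm2 (0.72, adjusted p = 0.0675). No S-phase member passed in edgeR (2 at an unadjusted p under 0.05) or DESeq2. With the gel as a block Mcm2 (0.73, adjusted p = 0.00766) and Mcm7 (0.51, adjusted p = 0.0353) were higher and 5 mitotic members lower in CD26+ NFs, namely Mki67, Top2a, Cenpe, Foxm1 and Prc1 (8.71% of genes were higher and 7.99% lower). With the tumor share taken off 6 mitotic members were lower (1.79% of genes were, and 2.83% higher), of which Mki67 and Bub1 had 1 count set to 0 by the subtraction. Leaving out 1 library changed the number called on deposited counts.

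Whether tumor cells and NFs differ in their response to a shared gel was tested over all 10 libraries, and 4 S-phase members and 1 mitotic member passed. Tumor line was not in this model. Rrm2 (1.88, SE 0.302, adjusted p = 0.00414), Mcm4 (1.36, SE 0.377, adjusted p = 0.0376) and Rrm1 (1.07, SE 0.284, adjusted p = 0.0322) had a higher change in tumor cells (8.15% of 17048 genes did), and Ccne2 a lower one (−1.58, SE 0.405, adjusted p = 0.0285; 12% of genes). The S-phase count is near the share of all genes. Rrm2 went from 39.55 and 63.1 CPM in tumor cells alone to 52.1 and 66.6 CPM beside NFs, higher in each line, whereas it fell in NFs. Of the mitotic members Cenpa, the centromeric histone, passed (−1.14, SE 0.307, adjusted p = 0.0336). It went from 65.7 and 70.2 CPM to 38.6 and 50.9 CPM in tumor cells, and stood at 7.14 and 3.37 CPM in the CD26− and CD26+ NFs of gel 1 and 5.88 to 8.06 CPM in those of shared gels.

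The S-phase median of this interaction was 1.09 and the mitotic median 0.20 (all genes −0.06). Mcm6 (1.59, adjusted p = 0.128), Mcm3 (1.51, adjusted p = 0.0973) and E2f1 (−0.72, adjusted p = 0.101) did not pass, nor did Nuf2 (1.10, adjusted p = 0.138), Kif20a (0.94, adjusted p = 0.0769), Mki67 (0.86, adjusted p = 0.23) and Ube2c (−1.42, adjusted p = 0.0699). Mcm2, Pcna, Ccne1, Cdc6, Top2a, Ccnb1, Cdk1, Plk1, Birc5, Foxm1 and Mybl2 did not pass. With the tumor share taken off, 8 S-phase members passed, 7 of them with positive values, and 5 mitotic members passed (Bub1, Nuf2, Kif20a, Top2a and Foxm1, all positive), while Cenpa did not (7.29% of genes passed with positive and 10.5% with negative values). The value of Bub1 then rests on a library whose count the subtraction set to 0. Rrm2 passed whichever library was left out, and the number of S-phase members that passed ranged from 1 to 9 (9 without the tumor library of gel 3) and of mitotic members from 0 to 4.

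Cyclin D genes and their kinases, which act before the members, differed by cell type. Ccnd2, cyclin D2, stood at 368 and 370 CPM in the CD26− and CD26+ NFs of gel 1 and 513 to 709.5 CPM in NFs of shared gels. It had 0 counts in both libraries of tumor cells alone, which makes it at least 1934-fold higher in NFs of gel 1 (against 3 counts per library), and 7 and 9 counts in tumor cells of gels 4 and 5. Cyclin D1, Ccnd1, had the reverse order, with 796 and 924 CPM in tumor cells alone against 28.3 and 54.5 CPM in the NFs of gel 1 (4.32, adjusted p = 2.14e-06), and Cdk6 was also higher in tumor cells (2.98, adjusted p = 1.11e-05). Cyclin D3 was lower in them (Ccnd3, adjusted p = 0.00387). Cdk4 (−0.02, adjusted p = 0.923) and Cdk2 (0.42, adjusted p = 0.0713), the kinases of cyclin D and cyclin E, did not pass. In shared gels Ccnd1 (2.57), Cdk4 (1.05), Cdk2 (0.75) and Cdk6 (0.64) were higher and Ccnd3 (−1.10) lower in tumor cells.

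Several of these genes moved in opposite directions in the 2 cell types. In NFs of shared gels Ccnd1 (1.21, adjusted p = 9.38e-05), Cdk6 (1.40, adjusted p = 0.000169), Ccnd2 (0.75, adjusted p = 0.0035) and Ccnd3 (0.47, adjusted p = 0.0344) rose and Cdk4 fell (−0.49, adjusted p = 0.00949). In tumor cells of shared gels Ccnd1 (−0.56, adjusted p = 0.0192) and Cdk6 (−0.93, adjusted p = 0.00059) fell and Cdk4 rose (0.58, adjusted p = 0.00824). The interaction passed for Ccnd1 (−1.75, adjusted p = 0.00408), Cdk6 (−2.33, adjusted p = 0.0011) and Cdk4 (1.07, adjusted p = 0.00881). Cdk2 passed in neither cell type (−0.04 and 0.28), and Ccnd3 did not pass in tumor cells (0.35, adjusted p = 0.107). Between subsets Ccnd1 was higher in CD26+ NFs over 3 gels (0.80, adjusted p = 0.00827) and in shared gels (0.78, adjusted p = 0.0161), and no other gene of these 6 passed.

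Inhibitors of cyclin-dependent kinases were split as well. Cdkn2a (p16 and p19), Cdkn2b (p15) and Cdkn1c (p57) had 0 counts in tumor cells alone and were at least 214-fold, 212-fold and 59.9-fold higher in NFs of gel 1. In tumor cells of shared gels Cdkn2a had 0 and 1 counts and the other genes 0. The p21 gene Cdkn1a stood at 277, 529 and 407 CPM in the CD26− libraries of gels 1, 4 and 5, and at 714, 798 and 798.5 CPM in the CD26+ libraries of the same gels. All CD26+ libraries were above all CD26− libraries (0.81, SE 0.165, adjusted p = 0.0221). Cdkn2a (1.62, adjusted p = 0.00426) and Cdkn1c (1.62, adjusted p = 0.0131) were higher in CD26+ NFs as well, and in shared gels alone these were too (1.94, adjusted p = 6.03e-05 and 1.83, adjusted p = 0.00259), while Cdkn1a did not pass there (0.60, adjusted p = 0.0691) except with the gel as a block (0.62, adjusted p = 0.004). Cdkn2b, Cdkn2d, the p27 gene Cdkn1b and Cdkn2c did not pass between subsets.

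In NFs of shared gels Cdkn2d (1.65, adjusted p = 0.000249) and Cdkn1a (0.49, adjusted p = 0.0433) rose and Cdkn2b (−0.93, adjusted p = 0.000451), Cdkn2a (−0.58, adjusted p = 0.0483; with the tumor share taken off −0.52, adjusted p = 0.0858) and Cdkn1b (−0.41, adjusted p = 0.0152) fell. Cdkn1c (0.74, adjusted p = 0.074) and Cdkn2c (−0.43, adjusted p = 0.151) did not pass. The subsets had unlike values. Cdkn2a (−1.05, adjusted p = 0.00337) and Cdkn1a (0.82, adjusted p = 0.0152) passed in CD26− NFs and not in CD26+ NFs (−0.09, adjusted p = 0.778 and 0.20, adjusted p = 0.51), and Cdkn2c (−0.88, adjusted p = 0.0183) and Cdkn1c (1.07, adjusted p = 0.0369) passed in CD26+ NFs and not in CD26− NFs (0.06, adjusted p = 0.88 and 0.38, adjusted p = 0.496). The interaction of subset and culture passed for none of these 4 in edgeR or DESeq2, with the lowest adjusted p at 0.388 for Cdkn2a. In tumor cells of shared gels Cdkn1a (−0.46, adjusted p = 0.0234) and Cdkn2c (−0.61, adjusted p = 0.037) fell, and Cdkn2d (−0.45, adjusted p = 0.0722) and Cdkn1b (−0.10, adjusted p = 0.576) did not pass. Cdkn2d was higher in tumor cells than in NFs when grown apart (1.92, adjusted p = 0.000261), and Cdkn1a was lower in tumor cells in shared gels (−0.71, adjusted p = 0.00917).

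**Figure D5:**
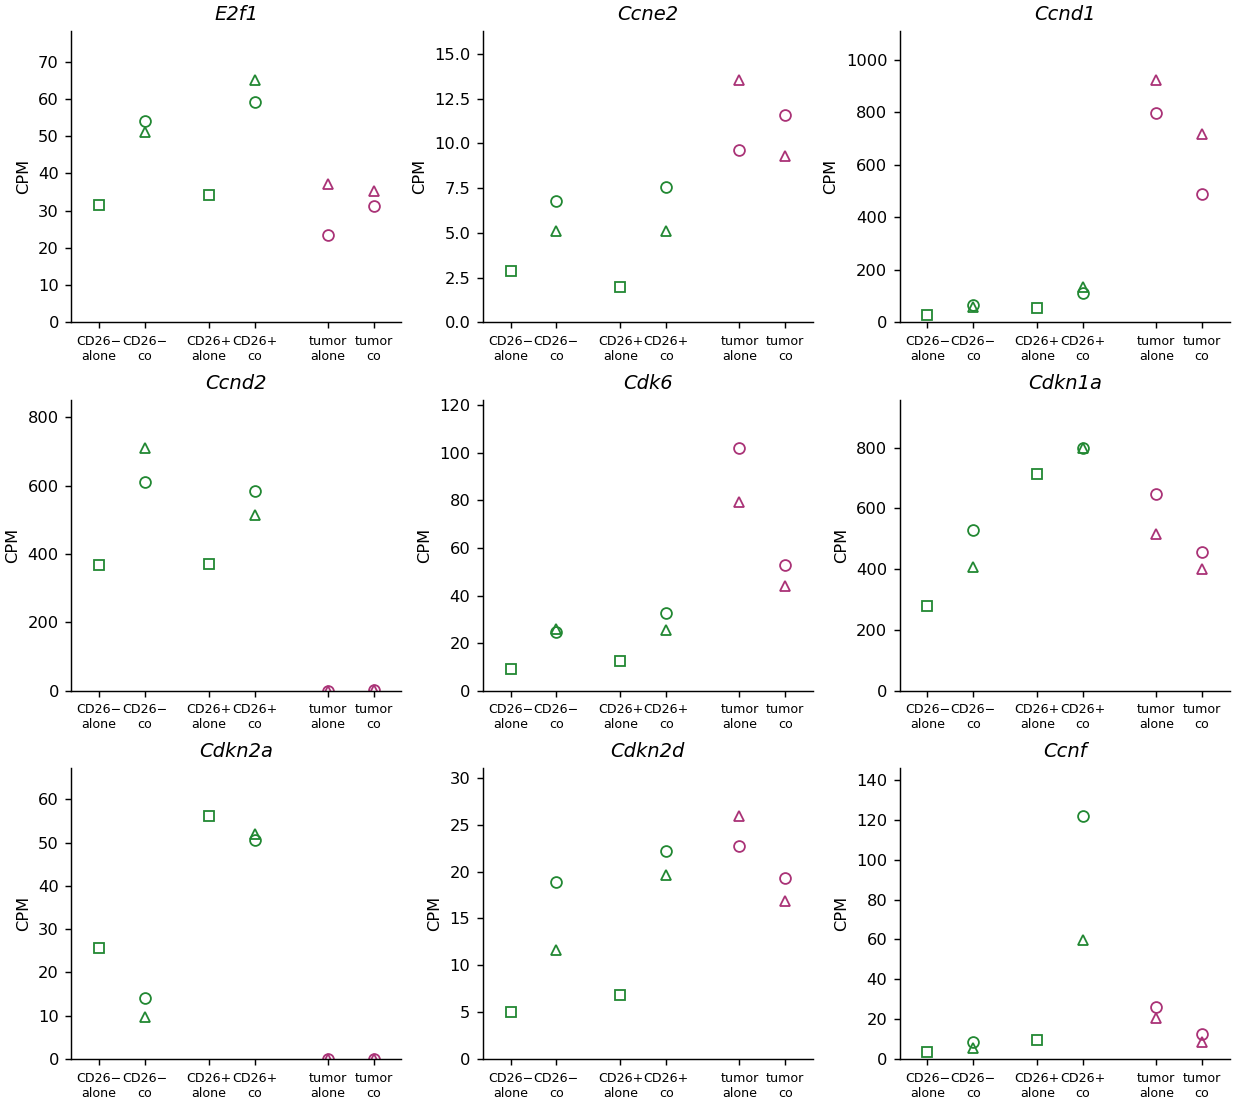
CPM of 9 genes of cell cycle entry and control in each library, by cell type and culture (green, NFs; purple, tumor cells; squares, gel 1; circles, gels with line 13-MCB-17; triangles, gels with line 10-SJK-221). Ccnd2 and Cdkn2a lie at or near 0 in tumor cells, and Ccnf is highest in CD26+ NFs of shared gels.

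Further genes of the same processes, from 3 longer lists, are given by counts. Of 32 other mitotic genes 23 fell and none rose in tumor cells of shared gels (median −0.57; 11.5% of all genes fell and 10.8% rose), from Cdc25b, a phosphatase that activates Cdk1 (−1.84, adjusted p = 0.000132), to the kinetochore gene Spc24 (0.40, adjusted p = 0.317). Of 30 other replication genes 1 rose and 1 fell there (median 0.10), with Dut, which removes dUTP (0.73, adjusted p = 0.0122), and the helicase gene Gins3 (−0.85, adjusted p = 0.0276) at the ends. In NFs of shared gels 11 other mitotic genes fell and 3 rose (median −0.80), and 9 other replication genes fell and 1 rose (median −0.17), while 22.9% of all genes fell and 25.9% rose. With the tumor share taken off, 19 other mitotic genes fell and 3 rose (median −1.17), and 10 other replication genes fell and 1 rose (median −0.27), against 22.3% of genes that fell and 24.8% that rose. Cdc7, the kinase that fires origins, stood at 11.2 and 10.8 CPM in the CD26− and CD26+ NFs of gel 1 and 1.32 to 2.42 CPM in NFs of shared gels, without overlap (−2.46, adjusted p = 7.13e-05). The histone mRNA binding gene Slbp was at the other end (0.66, adjusted p = 0.00385).

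Between tumor cells and NFs grown apart, 31 of 32 other mitotic genes were higher in tumor cells (median 2.89; 27.1% of all genes were higher and 28.4% lower), from Cdc25b (5.07) to Spc24 (0.55, which did not pass), and 24 of 30 other replication genes were higher and 1 lower (median 1.54), from Hells (3.02) to Gins4 (−0.92). Of 15 pocket protein, E2F and MuvB genes 8 were higher and 1 lower in the same comparison, with E2f2 (4.11, adjusted p = 7.07e-05) and the pocket protein gene Rbl2 (−0.96, adjusted p = 0.000722) at the ends. In NFs of shared gels E2f2 rose (1.55, adjusted p = 0.0275), a call lost with the tumor share taken off (1.41, adjusted p = 0.0629), and the E2F partner Tfdp1 (−0.70, adjusted p = 0.00128) and Rbl2 (−0.53, adjusted p = 0.00617) fell. In tumor cells of shared gels the atypical repressors E2f8 (−1.12, adjusted p = 0.00314) and E2f7 (−0.47, adjusted p = 0.0454) fell. None of the 15 passed between subsets in edgeR or DESeq2 (in edgeR 1 had an unadjusted p under 0.05 over 3 gels and 0 in shared gels).

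Between subsets, Ccnf and Gtse1 (1.38, adjusted p = 0.00873) were higher in CD26+ NFs over 3 gels and Ckap2l was lower (−1.17, adjusted p = 0.0189) among the 32 other mitotic genes, whose median was −0.53 (3.93% of genes were higher and 3.6% lower). In shared gels Ccnf, Gtse1 (1.51, adjusted p = 0.00551) and Ckap2 (1.04, adjusted p = 0.0325; with the tumor share taken off 1.12, adjusted p = 0.0734) were higher and Ckap2l lower (−1.07, adjusted p = 0.044), with a median of −0.27 (3.48% of genes were higher and 2.53% lower). Of the other replication genes Chaf1b passed, in shared gels (1.14, adjusted p = 0.0496; with the tumor share taken off 1.22, adjusted p = 0.0652). With the tumor share taken off, Kif2c, Anln, Racgap1, Cdca2, Prim1 and Uhrf1 were also lower in CD26+ NFs over 3 gels, as were Kif2c and Dlgap5 in shared gels. With the gel as a block, Kif2c was lower over 3 gels and Orc6 and Fen1 were higher in shared gels. These genes are named because they were the ones that passed.

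Cyclin F, Ccnf, stood apart among the other mitotic genes. It stood at 3.6, 8.3 and 5.47 CPM in the CD26− libraries of gels 1, 4 and 5, at 9.545, 122 and 59.75 CPM in the CD26+ libraries of the same gels, and at 25.9 and 20.6 CPM in tumor cells by themselves and 12.6 and 8.73 CPM in those of shared gels. The CD26+ NFs of shared gels were thus above all other libraries. Ccnf had the highest value of its list for CD26+ against CD26− NFs over 3 gels (2.95, adjusted p = 0.0073) and in shared gels (3.55, adjusted p = 1.52e-05), and for CD26+ NFs of shared gels against gel 1 (3.28, adjusted p = 3.23e-05). The interaction of subset and culture did not pass for it (2.29, adjusted p = 0.139), though it did with the gel as a block (2.24), a fit that leaves little to measure spread with.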

How the data were processed

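RNA was sequenced from 10 sorted cell samples of 5 gels, and the deposited table held raw counts per gene, made by the authors from reads aligned to GRCm38 with HISAT2 2.2.1, per the submitters' processing notes. The counting program, annotation release and use of strand are not given in the sources used here. Of the gene IDs 99.53% were found in GENCODE M21, which supplied exon lengths and overlaps. Samples were grouped by the GEO labels. Library totals ranged from 14142334 to 18408940 counts, and 3 counts equal 0.163 to 0.212 CPM.

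Counts were tested with edgeR 4.0.16 (R 4.3.3; TMM scaling, filterByExpr, quasi-likelihood F test, Benjamini-Hochberg adjustment over all genes tested, threshold 0.05; SE is the log2 fold change divided by the square root of F). NF comparisons used the NF libraries, the tumor comparison the 4 tumor libraries with line as a covariate, and comparisons of cell types all 10. The script was tested on simulated data. The labels give co-cultured samples a shared gel number. Deviations of same-gel samples from their group means correlated at r = 0.12 (CD26− with CD26+ NFs), 0.119 (CD26− NFs with tumor cells) and 0.073 (CD26+ NFs with tumor cells) over 17048 genes in 2 gels.

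Alternatives were RLE scaling, library totals, no filter, DESeq2 1.42.0, a fold threshold, leaving out libraries, the gel as a replicate block, no tumor line, and counts less carry-over, in which the median epithelial share times the tumor counts of the same gel was subtracted (and likewise with fibroblast markers for tumor cells). The gel block left few libraries to measure spread with, so its p-values are less certain. For culture in tumor cells, libraries were left out of a fit of all libraries with a term for tumor line. The replicate block with carry-over, and the spread shared with NF libraries, were added after seeing the data. The members and lists were chosen with earlier results of these data known. Named throughout were 15 fixed members, the ends of each list, and the kinase inhibitors, G1 cyclins and kinases.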

Additional observations from a re-analysis of the deposited data

Results flagged for a closer look

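Among the lists, 1 gene had a response to the shared gel that passed the interaction test of NF subset and culture, which rests on 1 library of each subset alone, with the spread taken from the other NF groups. Anln, a gene of cytokinesis, had a more positive change in CD26+ NFs (2.27, adjusted p = 0.0389), and with the tumor share taken off it did not pass (1.42, adjusted p = 0.459).

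Between tumor cells and NFs 5 of the 47 members passed the interaction test, a smaller share than of all genes (8.15% passed with positive and 12% with negative values). Rrm2 (1.88), Mcm4 (1.36) and Rrm1 (1.07) had a higher change in tumor cells, and Ccne2 (−1.58) and Cenpa (−1.14) a lower one. Of the kinase inhibitors, Cdkn1a (−0.97, adjusted p = 0.0331) and Cdkn2d (−2.10, adjusted p = 0.00324) had a lower change in tumor cells. Of the G1 cyclins and kinases, Ccnd1 (−1.75) and Cdk6 (−2.33) had a lower and Cdk4 (1.07) a higher change in tumor cells. The value of Ccnd2 (5.06) rests on tumor libraries with 0, 0, 7 and 9 counts, so it depends on the prior count and is no measure of size.

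Genes of the longer lists passed the same test. Cdc7 (2.54), Spc24 (2.32), Gins4 (1.53), Knl1 (1.31) and Tfdp1 (0.83) had a higher change in tumor cells. Ccnf (−3.28), Cdc25b (−3.02), E2f2 (−2.16), E2f8 (−1.51), Pttg1 (−1.33) and Anln (−1.11) had a lower one. With carry-over taken off the counts Anln (−0.11, adjusted p = 0.904), E2f2 (−2.03, adjusted p = 0.0523), Pttg1 (−1.20, adjusted p = 0.07) and Knl1 (2.28, adjusted p = 0.0631) did not pass, and of the members Cenpa did not (−0.88, adjusted p = 0.0805).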

How the results depend on the processing

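Counts below are genes past the threshold. Over all alternatives, 4901 values of single genes were recomputed. Of these 4305 kept their side of the threshold, 503 lost the call, 91 gained one and 2 reversed. Reversed were Mki67 (interaction of subset and culture, −1.49 with the replicate block and carry-over subtracted, which set 1 of its counts to 0) and Ccnd2 (interaction of cell type and culture, −0.82 with carry-over subtracted). Values that passed in neither setting were not counted as reversed when their sign changed. In the interaction of subset and culture Top2a was such a value (0.88, and −0.32 with carry-over subtracted). The causes were not tested. Scaling by library totals moved the median of all genes to 0.16 and 0.18 between subsets (3 gels and shared gels) and to 0.13 between cell types in shared gels.

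An added fold threshold (log2 above 2) left, of S-phase and mitotic members and of all genes, 0, 0 and 192 between subsets over 3 gels, 0, 0 and 223 in shared gels, 0, 0 and 2047 for culture in NFs, 1, 1 and 1857 in CD26− NFs, 0, 0 and 2161 in CD26+ NFs, 0, 0 and 418 in tumor cells and 0, 0 and 1629 for cell type by culture. Between cell types it left 1 S-phase member and 4899 genes apart and 6 and 3999 in shared gels. DESeq2 gave 9 mitotic members in CD26− and 1 in CD26+ NFs, 0 S-phase members and 1568 genes in tumor cells, 98 genes for subset by culture, and 7 and 2 members for cell type by culture. Without the filter there were 0 mitotic members and 603 genes between subsets in shared gels, 1 mitotic member in CD26+ NFs, 18 genes for subset by culture, 4 S-phase members in tumor cells, and 9 and 3 members for cell type by culture. With library totals, 2 S-phase members passed between subsets in shared gels and 2 in tumor cells, and 123 genes for subset by culture. Without tumor line 0 S-phase, 0 mitotic and 0 genes passed in tumor cells, and with the spread shared 0, 8 and 1817.

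With carry-over subtracted, mitotic counts were 9 and 6 between subsets (3 gels and shared gels), 19 in NFs and 13 in CD26+ NFs, 31 genes passed for subset by culture, and 8 and 5 members for cell type by culture. With the replicate block, 6 mitotic members passed between subsets over 3 gels; 2 S-phase, 5 mitotic and 2407 genes in shared gels; and 1, 3 and 395 for subset by culture. With block and subtraction together these were 11; 1, 11 and 2205; and 1, 2 and 332.

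Leaving out 1 gel or library gave, for S-phase members, mitotic members and all genes, 0 to 0, 0 to 4 and 17 to 1299 between subsets over 3 gels, 0 to 0, 0 to 1 and 0 to 451 in shared gels, 8 to 10, 4 to 16 and 5131 to 5988 for culture in NFs, 7 to 9, 4 to 14 and 2947 to 3372 in CD26− NFs, 2 to 7, 0 to 3 and 3200 to 4903 in CD26+ NFs, 0 to 0, 0 to 0 and 0 to 30 for subset by culture, 0 to 0, 0 to 4 and 406 to 1014 in tumor cells, 6 to 12, 28 to 31 and 7628 to 8344 between cell types apart, 13 to 14, 31 to 31 and 6477 to 8248 in shared gels, and 1 to 9, 0 to 4 and 2163 to 3358 for cell type by culture. A lone remaining library is assumed to vary like the other groups. No group of subset or cell type and culture held more than 2 libraries, which limits every call.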

Other observations

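Some genes of the longer lists, picked after their values were seen, moved differently in the cell types. Cdc25b stood at 300.2 and 223 CPM in tumor cells by themselves and 71.6 and 76 CPM in shared gels, while in NFs it stood at 8.88 and 5.755 CPM in the CD26− and CD26+ libraries of gel 1 and 13.35 to 19.8 CPM in those of shared gels. It fell in tumor cells (−1.84, adjusted p = 0.000132) and rose in NFs (1.15, adjusted p = 0.00183), with no overlap between cultures in either. Pttg1, the securin gene, stood at 44.4 and 59.2 CPM in tumor cells by themselves and 35.35 and 64.3 CPM in shared gels, and it rose in NFs (1.25, adjusted p = 0.0013).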
